A study of Mus musculus with 16 samples.

Results

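Genes of the sarcomere scaffold and its assembly were followed through differentiation in WT and Fam134b KO C2C12 cells, a mouse myoblast line that fuses into myotubes in culture. The 9 genes were taken by symbol: Ttn, Neb, Myom1, Tcap, Ldb3, Synpo2l, Unc45b, Smyd1 and Mybph, out of 31053 genes in the table. All 9 were among the 10767 genes that were tested, those reaching 10 normalized counts in 4 or more samples. The 16 samples formed 4 groups of 4, in which each genotype, WT or Fam134b KO (here KO), was sampled as undifferentiated myoblasts and as myotubes. All cells grew in DMEM with serum, and myotubes formed spontaneously at confluence without a switch to another medium. The KO line was made with a lentiviral vector carrying Cas9 and guides against Fam134b (Retreg1), the gene of an endoplasmic reticulum (ER)-phagy receptor. Whether the line was 1 clone or a pool, and whether WT cells carried an empty vector, is not given in the sources used here. Genotype and stage come from the sample titles, since a separate genotype field reads unknown for every sample.

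The sarcomere is the contractile unit of striated muscle and runs from one Z-disc to the next. Titin spans from the Z-disc to the M-band as a molecular spring and scaffold, nebulin runs along the thin filament, and smaller proteins tie both to the Z-disc and the M-band. Assembly also needs chaperones that fold the myosin head and keep thick filaments stable. In cultured myoblasts most of these genes are switched on when cells leave the cell cycle and fuse.

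Upstream sequence is shown for 4 of the genes, chosen because their myoblast values were among those furthest apart between the genotypes or, for Ldb3, went the other way from the rest. RefSeq windows on GRCm38.p6 matched 7 of the 9 genes. Each line gives the 250 bases before a start site, 5′ to 3′ on the strand of the gene. Capitals mark matches to the E-box (CANNTG, bound by MyoD and myogenin), the MEF2 site or the CArG box (bound by serum response factor), searched on both strands. Ttn lies at chr2:76982548-76982797 on the minus strand, Synpo2l at chr14:20668355-20668604 on the minus strand, Mybph at chr1:134193198-134193447 on the plus strand and Ldb3 at chr14:34588682-34588931 on the minus strand.
Ttn: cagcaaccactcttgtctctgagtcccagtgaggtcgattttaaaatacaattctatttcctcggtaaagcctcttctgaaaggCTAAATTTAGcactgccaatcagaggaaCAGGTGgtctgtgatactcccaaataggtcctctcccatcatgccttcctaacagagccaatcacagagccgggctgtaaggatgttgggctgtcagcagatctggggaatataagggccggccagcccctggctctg
Synpo2l: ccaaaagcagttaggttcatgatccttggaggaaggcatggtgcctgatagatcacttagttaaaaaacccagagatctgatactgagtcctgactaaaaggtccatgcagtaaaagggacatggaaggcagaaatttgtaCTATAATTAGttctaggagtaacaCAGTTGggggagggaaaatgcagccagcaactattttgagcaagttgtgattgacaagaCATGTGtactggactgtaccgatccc
Mybph: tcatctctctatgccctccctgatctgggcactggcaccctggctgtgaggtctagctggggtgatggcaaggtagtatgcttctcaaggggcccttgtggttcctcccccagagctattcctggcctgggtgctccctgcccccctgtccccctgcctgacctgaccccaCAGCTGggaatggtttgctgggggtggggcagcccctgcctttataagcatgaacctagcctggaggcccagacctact
Ldb3: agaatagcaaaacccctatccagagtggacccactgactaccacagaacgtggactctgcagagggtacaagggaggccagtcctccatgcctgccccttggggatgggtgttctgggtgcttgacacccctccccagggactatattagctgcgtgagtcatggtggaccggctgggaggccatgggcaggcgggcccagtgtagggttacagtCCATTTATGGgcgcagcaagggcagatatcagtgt
The windows of Ttn, Synpo2l and Mybph held 0 exonic bases of any gene in GENCODE M21, and that of Ldb3 held 1, of Ldb3 itself. Ttn and Synpo2l each carried 1 MEF2 site, a match found in 2.92% of 32851 RefSeq windows of this length. Ldb3 carried 1 CArG box, found in 1.47% of windows, and 0 E-boxes, which 66.2% of windows hold. Smyd1, whose window is not shown, held 0 matches to all 3 motifs. Synpo2l and Ldb3 each had another window that is not shown. That of Synpo2l (chr14:20664575-20664824) held 3 E-boxes, 1 MEF2 site and 0 CArG boxes. That of Ldb3 (chr14:34588608-34588857) held 0 E-boxes, 1 CArG box and 75 exonic bases of Ldb3. A match describes letters in the window and shows no binding.

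Between 2686680 and 3287461 reads per sample fell on genes in WT cells and KO myoblasts, and from 1484750 to 2947336 in KO myotubes, of which replicates 2 and 4 were the shallowest. Values are normalized counts, recovered from the deposited log2 values, and 3 reads corresponded to 2.49 to 5.99 normalized counts depending on the sample. Fam134b itself was at 206.9 ± 42.0 (SD, n = 4) in WT myoblasts and 27.5 ± 5.49 in KO myoblasts, and at 231.8 ± 61.6 and 41.8 ± 14.0 in WT and KO myotubes. The summed level of 10 skeletal muscle markers ran from 1561 to 2334 in myoblasts and from 12345 to 18325 in myotubes of WT cells, and from 238.2 to 308.0 and from 5431 to 7987 in those of KO cells. Summed markers of other cells ran from 26.3 to 150.1 for osteoblasts (4 genes, Ibsp at 0 throughout), 33.97 to 89.2 for adipocytes (5 genes, Adipoq and Plin1 at 0), 7.77 to 37.4 for neural cells (3 genes, Sox10 at 0) and 0 to 25.0 for blood cells (3 genes, Ptprc at 0). Endothelial, cardiomyocyte and epithelial sums reached at most 1.94, 5.94 and 10.01, with Cdh5, Nppa and Epcam at 0. Single genes carried most of the larger sums. Runx2 ran from 26.3 to 150.1 among the osteoblast genes, with Bglap at most 1.73 and Sp7 at most 0.923. Cebpa ran from 33.97 to 78.4 among the adipocyte genes, with Fabp4 at most 0.964, and Tubb3 from 7.77 to 37.4 among the neural genes. Pparg, also an adipocyte gene, ran from 3.56 to 6.004 in WT and from 12.45 to 26.2 in KO myoblasts, without overlap. It was at most 3.45 in WT and 8.097 in KO myotubes. Cebpa overlapped between the myoblast groups, at 62.7 to 78.4 in WT and 56.7 to 62.99 in KO. The part of Pparg in the results was not tested. By stage the osteoblast sum was 110.9 to 150.1 in WT and 68.9 to 117.6 in KO myoblasts, and 38.9 to 83.6 and 26.3 to 76.5 in myotubes, and its part in the results was not tested. The table counts RNA of a whole culture, so fewer differentiated cells and less RNA per cell cannot be told apart. The titles number the samples of each group as replicates. The sources describe 1 line per genotype, and p-values measure the spread between these samples only.

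All 9 genes rose with differentiation in WT cells and all 9 in KO cells (limma, Benjamini-Hochberg adjusted p under 0.05 over all genes tested). Of all genes tested, 13.8% were called higher and 9.16% lower in WT myotubes, and 17.3% were called higher and 16.1% lower in KO myotubes. The 9 genes were chosen with earlier results of these data known, so setting their counts beside these shares is a description and no independent test. Of the calls in WT cells, 60.1% were higher as deposited and 49.7% after quantile normalization. The median log2 fold change of the 9 was 2.76 in WT and 6.15 in KO cells, against -0.01 and -0.02 over all genes tested. The KO median is the value of Unc45b, which had 0 reads in KO myoblasts, so its size depends on the 1 added before the log. With 5 added instead, the value of Unc45b was 3.91. Between genotypes, 7 of the 9 were lower in KO myoblasts, Ldb3 was higher and Myom1 was not called, where 8.50% of all genes were called lower and 7.26% higher. In KO myotubes 7 of the 9 were again lower, Ttn and Unc45b were not called and 0 were higher, where 13.7% of all genes were called lower and 9.74% higher. Median log2 differences of the 9 genes between KO and WT were -3.66 in myoblasts and -1.40 in myotubes, against -0.01 and -0.07 over all genes. The myoblast median is the value of Neb, which was -1.95 with 5 added before the log.

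The change with differentiation was also compared between the genotypes directly, as the interaction of genotype and differentiation. It was more positive in KO cells for Ttn, Neb, Synpo2l, Smyd1 and Mybph, more negative for Ldb3, and not called for the other 3. These were Myom1 at -1.27 (95% interval -2.86 to 0.32), Tcap at 0.17 (-1.06 to 1.39) and Unc45b at 1.84 (0.44 to 3.24, adjusted p 0.146), and quantile normalization and a pseudocount of 5 turned the sign for Tcap. Of all genes, 1.97% had a more positive and 1.48% a more negative change in KO cells. The 4 comparisons and the interaction share samples, so they are not independent of each other. A filter on low values touches these counts: Tcap passed it through WT myotubes alone, Myom1 and Unc45b through myotubes of both genotypes, and Ldb3 alone reached 10 normalized counts in all 16 samples.

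**Figure D1:**
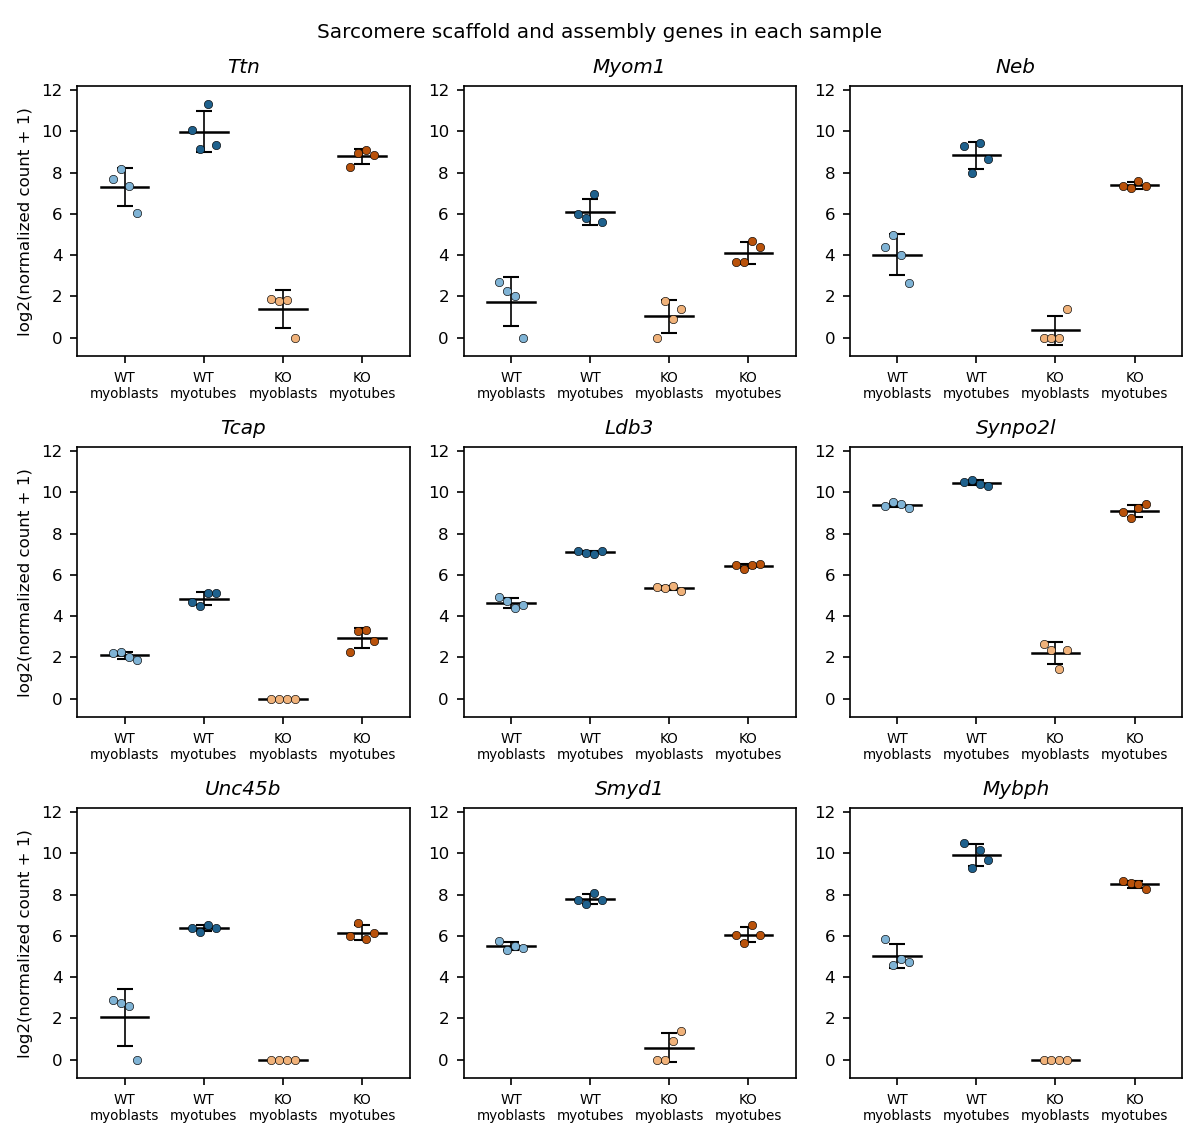
Values of the 9 genes in each of 16 samples. The vertical axis is log2(normalized count + 1), points are samples ordered by replicate number, wide bars are means and whiskers are SD (n = 4); KO myoblasts sit at or near 0 for every gene except Ldb3 and, at a few reads, Synpo2l, Ttn and Myom1.

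**Figure D2:**
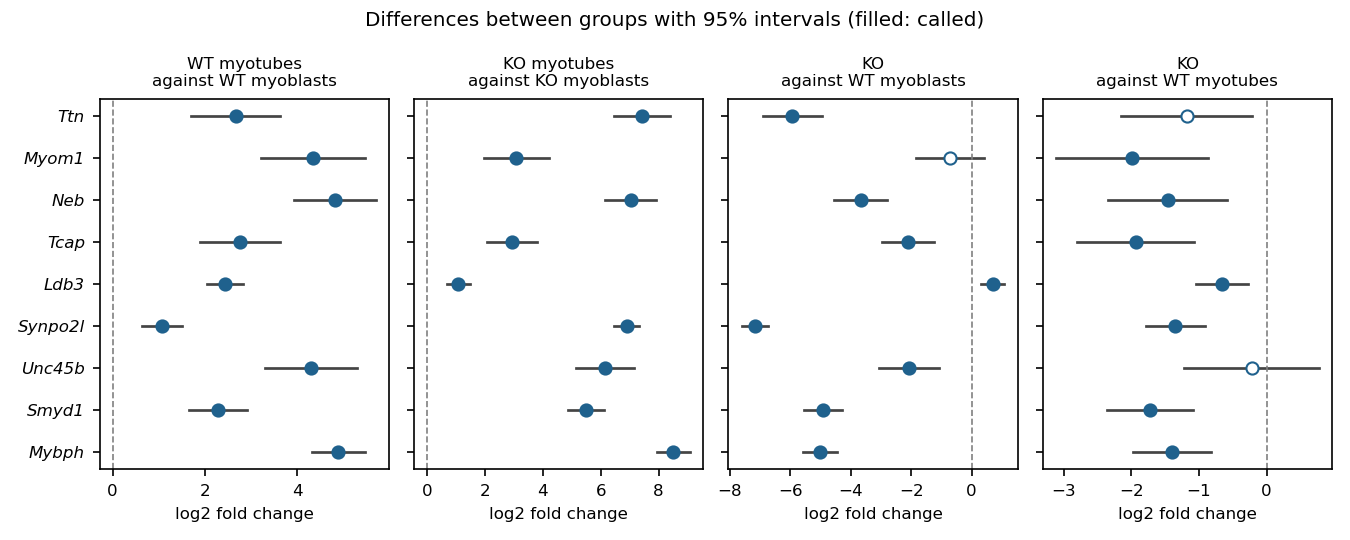
Log2 differences of the 9 genes in 4 comparisons, with the first-named group minus the second on the horizontal axis, points for estimates and lines for 95% intervals from limma. Filled points passed an adjusted p under 0.05; the open ones are Myom1 in myoblasts (-0.72) and Ttn (-1.18) and Unc45b (-0.22) in myotubes.

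Titin, encoded by Ttn (ENSMUSG00000051747, chr2:76703980-76982547 on the minus strand in GRCm38), is the spring of the sarcomere. In WT myoblasts its normalized counts in replicates 1 to 4 were 205.8, 284.5, 161.1 and 65.1. In WT myotubes they were 1079, 574.8, 2585 and 641.0. KO myoblasts had 2.62, 2.49, 2.6 and 0, which is 9 reads over the group. KO myotubes had 309.8, 487.4, 551.5 and 465.6, so all 4 lay above all KO myoblasts and all 4 below the lowest WT myotube sample. The mean rose 6.81-fold in WT cells (log2 change 2.67 ± 0.47 SE, adjusted p 0.000312) and 235-fold in KO cells (log2 change 7.42 ± 0.47, adjusted p 7.06e-11). KO myoblasts held a 92.8-fold lower level than WT myoblasts (log2 difference -5.93 ± 0.47, adjusted p 3.59e-09). In KO myotubes the mean was 37.2% of WT, and this log2 difference of -1.18 ± 0.47 was not called (adjusted p 0.0729). That call passed the threshold under 5 of 19 alternative settings, among them a fit of only the 8 samples compared (adjusted p 0.0431) and the fit without replicate 2 of WT myotubes (0.0420). Without replicate 3 of WT myotubes the difference was -0.73 (adjusted p 0.287), KO was at 59.3% of WT, and the WT rise was 4.27-fold (log2 change 2.21, adjusted p 0.00188). The interaction was 4.75 ± 0.66 (adjusted p 0.000113).

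Myomesin-1 (Myom1, ENSMUSG00000024049, chr17:71002633-71126856, plus strand) crosslinks thick filaments and binds titin at the M-band. WT myoblasts had 5.54, 3.86, 3.0 and 0 normalized counts, and WT myotubes had 63.0, 54.0, 125.5 and 47.6. KO myoblasts had 0, 2.49, 0.868 and 1.67, and KO myotubes had 11.6, 11.7, 25.2 and 19.98. The myoblast groups overlapped, while all KO myotubes lay below all WT myotubes. Myom1 rose 23.4-fold in WT cells (adjusted p 5.64e-06) and 13.6-fold in KO cells (adjusted p 0.000169), and in KO myotubes it was at 23.6% of WT (log2 difference -1.99 ± 0.54, adjusted p 0.0110). The last call was lost without replicate 3 of WT myotubes (adjusted p 0.0542) and with sample weights (adjusted p 0.0524). In myoblasts the log2 difference was -0.72, with a 95% interval from -1.84 to 0.41 (adjusted p 0.435). Myom1 shares 207 exonic bases with Myl12a on the opposite strand, which reached 3897 normalized counts. The strand setting of the counting is not given in the sources used here, and without strand the reads of both genes cannot be told apart there.

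Nebulin (Neb, ENSMUSG00000026950, chr2:52136647-52378474, minus strand) binds actin along the thin filament and anchors it at the Z-disc. Its normalized counts were 20.3, 30.9, 15.01 and 5.35 in WT myoblasts and 627.7, 253.7, 695.2 and 399.3 in WT myotubes. In KO myoblasts they were 0, 0, 0 and 1.67, from 2 reads in all. KO myotubes had 161.7, 151.8, 194.3 and 159.9, a narrow range that ended below the lowest WT myotube sample. Neb rose 27.6-fold in WT cells (log2 change 4.83 ± 0.42, adjusted p 4.46e-08) and 400-fold in KO cells (adjusted p 3.25e-11), with a 95% counting interval of 110 to 3311 that covers counting error only. KO myoblasts were 41.5-fold lower than WT myoblasts (counting interval 11.1 to 349, adjusted p 1.27e-06), and KO myotubes were at 33.8% of WT (log2 difference -1.46 ± 0.42, adjusted p 0.0160). The myotube difference was lost without replicate 3 of WT myotubes (adjusted p 0.0670) and without the 2 shallowest KO myotube samples (adjusted p 0.0691). The interaction of 2.21 ± 0.60 was called at an adjusted p of 0.0445 and lost in 17 of 26 alternatives.

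Of the 3 Z-disc genes, Tcap and Synpo2l were lower and Ldb3 was higher in KO than in WT myoblasts. Telethonin (Tcap, ENSMUSG00000007877, chr11:98383811-98384953, plus strand) caps the Z-disc end of titin. WT myoblasts had 3.69, 3.86, 3.0 and 2.67 normalized counts and WT myotubes 25.0, 21.6, 33.5 and 33.7. All 4 KO myoblast samples were at 0, and KO myotubes had 3.87, 8.76, 8.997 and 5.995, from 3 to 10 reads per sample. Tcap rose 8.60-fold in WT cells (adjusted p 6.22e-05) and at least 10.8-fold in KO cells (adjusted p 1.46e-05), a bound set at 3 reads over the KO myoblast group. It was at least 5.17-fold lower in KO than in WT myoblasts (adjusted p 0.000944, lost under quantile normalization at 0.157). KO myotubes were at 24.3% of WT (log2 difference -1.93 ± 0.42, adjusted p 0.00187) and did not overlap them. Tcap passed the filter on low values through WT myotubes alone. Its comparisons with WT myotubes thus concern a gene that was tested because it was high there.

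Ldb3 (ENSMUSG00000021798, chr14:34526603-34588682, minus strand) encodes ZASP, also called Cypher, a PDZ-LIM protein that binds alpha-actinin at the Z-disc. WT myoblasts had 29.5, 26.0, 20.01 and 22.3 normalized counts, and KO myoblasts had 41.1, 40.7, 42.5 and 35.9. All KO myoblasts thus lay above all WT myoblasts, by 1.64-fold on average (log2 difference 0.70 ± 0.19, adjusted p 0.0119, lost without replicate 3 of WT myoblasts at 0.0507). Myotubes were in the opposite order, with 143.3, 131.3, 127.3 and 141.7 in WT and 88.1, 75.9, 89.1 and 89.9 in KO. KO myotubes were at 63.1% of WT (log2 difference -0.66 ± 0.19, adjusted p 0.0142), a call lost without the 2 shallowest KO myotube samples (adjusted p 0.0549). Ldb3 rose 5.56-fold in WT cells (adjusted p 5.29e-09) and 2.14-fold in KO cells (adjusted p 0.000145), and its interaction was -1.36 ± 0.26 (adjusted p 0.00413).

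Synpo2l (ENSMUSG00000039376, chr14:20658946-20668354, minus strand) encodes CHAP, an actin-associated Z-disc protein of the synaptopodin family. In WT myoblasts it already stood at 646.8, 729.1, 700.5 and 614.0 normalized counts, and WT myotubes had 1462, 1545, 1337 and 1285. KO myoblasts had 5.25, 4.15, 1.74 and 4.17, and KO myotubes 523.8, 429.0, 597.4 and 689.4. KO myotubes therefore overlapped WT myoblasts and lay below WT myotubes. The rise was 2.09-fold in WT cells (log2 change 1.06 ± 0.21, adjusted p 0.000891) and 146-fold in KO cells (6.90 ± 0.21, adjusted p 2.13e-16). KO myoblasts were 176-fold lower than WT myoblasts (log2 difference -7.18 ± 0.21, adjusted p 2.79e-16), and KO myotubes were at 39.8% of WT (-1.35 ± 0.21, adjusted p 8.28e-05). Its interaction of 5.84 ± 0.29 had an adjusted p of 1.91e-11. Within a sample, the log2 value of Ldb3 minus that of Synpo2l ran from -5.06 to -4.41 in WT myoblasts and from 2.75 to 3.99 in KO myoblasts, while in myotubes it ran from -3.55 to -3.17 in WT and from -2.93 to -2.48 in KO.

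Of the 2 genes for myosin folding, Smyd1 was lower in KO than in WT myotubes and Unc45b was not called. UNC45B (Unc45b, ENSMUSG00000018845, chr11:82910550-82943403, plus strand) is the muscle co-chaperone that works with HSP90 on the myosin head. WT myoblasts had 6.46, 5.79, 5.00 and 0 normalized counts, and all 4 KO myoblasts were at 0. WT myotubes had 82.0, 72.9, 92.0 and 81.2, and KO myotubes had 62.0, 99.2, 55.8 and 69.9, so the myotube groups overlapped. Unc45b rose 19.0-fold in WT cells (adjusted p 1.15e-06) and at least 108-fold in KO cells (adjusted p 2.73e-09). KO myotubes were at 87.4% of WT, with a log2 difference of -0.22 and a 95% interval from -1.21 to 0.77 (adjusted p 0.782). In myoblasts the level was at least 6.65-fold lower in KO (adjusted p 0.00394), although replicate 4 of WT myoblasts was also at 0, and quantile normalization lost the call (adjusted p 0.0896).

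Smyd1 (ENSMUSG00000055027, chr6:71213940-71322233, minus strand) encodes a muscle lysine methyltransferase that associates with myosin and is needed for thick filament assembly. Its normalized counts were 53.5, 39.5, 45.0 and 41.0 in WT myoblasts and 0, 0, 0.868 and 1.67 in KO myoblasts. WT myotubes had 214.1, 186.2, 271.4 and 216.0, and KO myotubes had 64.9, 49.6, 90.0 and 65.9, well below all WT myotubes. Smyd1 rose 4.96-fold in WT cells (adjusted p 1.44e-05) and 110-fold in KO cells (counting interval 37.2 to 538, adjusted p 8.41e-12). Smyd1 was 70.2-fold lower in KO myoblasts (counting interval 23.6 to 343, adjusted p 7.42e-11) and at 30.5% of WT in KO myotubes (log2 difference -1.72 ± 0.30, adjusted p 0.000338). Without replicate 4 of KO myoblasts, which held 2 of the 3 reads, Smyd1 was 234-fold higher in KO myotubes than in KO myoblasts and 155-fold lower in KO than in WT myoblasts. Its interaction was 3.21 ± 0.43 (adjusted p 7.18e-05), or 1.49 with a pseudocount of 5. The log2 value of Unc45b minus that of Smyd1 in the same sample ran from -1.55 to -1.34 in WT myotubes and from -0.68 to 0.99 in KO myotubes. This contrast was noticed in the data and was not tested.

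Myosin-binding protein H (Mybph, ENSMUSG00000042451, chr1:134193448-134201232, plus strand) binds the thick filament. WT myoblasts had 57.2, 23.1, 28.02 and 25.8 normalized counts, and no read was counted in the 4 KO myoblast samples. WT myotubes had 1449, 625.2, 1151 and 822.3, and KO myotubes had 410.5, 383.8, 360.8 and 311.7, all lower. The gene rose 30.2-fold in WT cells (log2 change 4.90 ± 0.27, adjusted p 4.73e-11) and at least 585-fold in KO cells (adjusted p 5.08e-16). It was at least 52.8-fold lower in KO myoblasts (adjusted p 9.38e-12) and at 36.2% of WT in KO myotubes (log2 difference -1.40 ± 0.27, adjusted p 0.000861). The interaction was 3.62 ± 0.39 (adjusted p 3.40e-06). Fitted log2 values depend on the 1 added before the log wherever KO myoblasts are at or near 0 reads, in the interaction too. With pseudocounts of 5 and 0.5 the interaction was 1.48 and 4.59 for Mybph, 1.49 and 3.87 for Smyd1, 3.41 and 5.16 for Ttn, 0.52 and 2.97 for Neb and 4.94 and 6.01 for Synpo2l, and the one of Neb at 5 was not called (adjusted p 0.594). The size of these interactions thus moves with the pseudocount.

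Among muscle transcription factors, Myog, Myod1 and Mef2c rose with differentiation in both genotypes. They were lower in KO than in WT myoblasts, as were 7 of the 9 genes, while Ldb3 was higher there and Myom1 was not called. Myf5 overlapped between the stages of each genotype, and all KO myoblasts lay above all WT myoblasts. The part of these factors in the differences was not tested. Myogenin (Myog) was at 113.8 ± 24.3 in WT myoblasts, 1069 ± 193 in WT myotubes, 0 in all 4 KO myoblasts and 765.8 ± 195 in KO myotubes. In myotubes the groups overlapped and the difference was not called (KO at 71.7% of WT, adjusted p 0.0892). MyoD (Myod1) was at 281.5 ± 63.7 in WT and 9.62 ± 4.70 in KO myoblasts, and KO myotubes were at 38.3% of WT (adjusted p 0.000497). Mef2c was at 24.0% of WT in KO myotubes (adjusted p 0.00130). Myf5, which marks myoblasts, ran from 59.8 to 82.0 in WT and from 106.7 to 118.5 in KO myoblasts, and from 45.9 to 93.1 and from 38.0 to 113.4 in WT and KO myotubes. Among myotubes, 6 of the 9 genes lay between 23.6% and 37.2% of WT (Ttn, Myom1, Neb, Tcap, Smyd1 and Mybph), Synpo2l at 39.8%, Ldb3 at 63.1% and Unc45b at 87.4%. Without replicate 3 of WT myotubes Ttn moved to 59.3%, outside that range.

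Other genes of the same structures were read from 5 lists of 68 genes in all, of which 57 were tested. The lists, too, were chosen with earlier results of these data known. In WT cells 33 of the 57 were called higher and 3 lower with differentiation (median log2 change 0.80), and in KO cells 30 higher and 8 lower (0.86). Between genotypes, 20 were lower and 3 higher in KO myoblasts (median -0.72), and 25 lower and 3 higher in KO myotubes (median -0.88). The interaction was called for 7, of which 6 were more positive in KO cells. Of all genes tested, 13.8% were called higher and 9.16% lower in WT differentiation, and 17.3% and 16.1% in KO differentiation. In KO myoblasts 7.26% were higher and 8.50% lower than in WT, and in KO myotubes 9.74% and 13.7%. The interaction was more positive in KO cells for 1.97% of all genes and more negative for 1.48%. The largest changes of called list genes in WT cells were those of Actn2, the alpha-actinin of the Z-disc (0.231 to 100.3 normalized counts), Ankrd2, a stretch-responsive titin partner (1.6 to 123.0), and Myoz2, a Z-disc calsarcin (2.75 to 121.1). In KO cells they were Myom2 of the M-band (0.217 to 282.5), leiomodin-3 (Lmod3, 0.219 to 105.5), which elongates thin filaments, and Klhl41 (0.859 to 140.3), which stabilises nebulin. The myoblast values of Actn2 in WT and of Myom2 and Lmod3 in KO each rest on 1 read over the group, that of Klhl41 on 4. Counting intervals of the folds were 76.5 to 16965 for Actn2, 246 to 54395 for Myom2 and 93.4 to 20732 for Lmod3. The sizes of these log2 changes depend on the 1 added before the log.

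**Figure D3:**
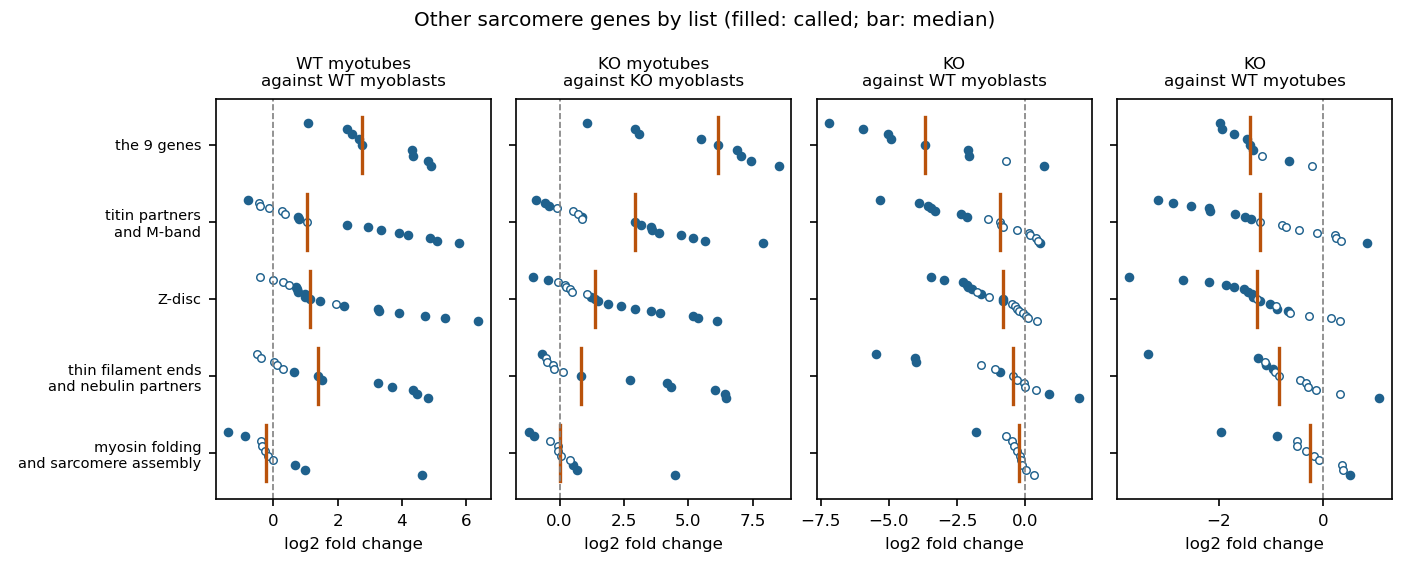
Log2 differences of the 9 genes and of tested genes in 4 lists, for the same comparisons, with the first-named group minus the second on the horizontal axis. Each point is a gene, filled when called, and vertical bars are medians; the Z-disc list has a median of 1.15 in WT differentiation and -1.27 between KO and WT myotubes, and the myosin folding list -0.22 and -0.25.

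By list, 14 of 19 tested Z-disc genes were higher in WT myotubes than in WT myoblasts and 11 were higher and 2 lower in KO, while 9 were lower in KO myoblasts and 13 in KO myotubes, with 0 higher at either stage. Of 17 titin partners and M-band genes, 10 rose in each genotype, 1 fell in WT and 3 fell in KO cells, 7 were lower and 1 higher in KO myoblasts, and 8 lower and 1 higher in KO myotubes. Of 13 genes of thin filament ends and nebulin partners, 8 rose in WT cells, 7 rose and 1 fell in KO cells, 4 were lower and 2 higher in KO myoblasts, and 4 lower and 1 higher in KO myotubes. Among 10 genes for myosin folding and assembly, 3 rose and 2 fell in each genotype, 1 was lower in KO myoblasts, and 2 were lower and 1 higher in KO myotubes. Over all genes tested the shares were 13.8% higher and 9.16% lower in WT and 17.3% and 16.1% in KO differentiation, and 7.26% higher and 8.50% lower in KO myoblasts and 9.74% and 13.7% in KO myotubes, so the myosin folding counts between genotypes are near those of all genes. The myosin-binding list (4 genes) had 0 tested. In myoblasts, Klhl40, which protects nebulin, was at 90.5 in WT and 1.3 in KO (adjusted p 6.41e-12), Obsl1, which links to titin at the M-band, at 141.4 and 2.55 (adjusted p 1.48e-12), and Lmod3 at 19.8 and 0.219. The KO values rest on 6, 12 and 1 reads over the group, and the counting interval of the Lmod3 fold was 16.1 to 3675. In myotubes the largest differences were for Actn2 (100.3 in WT, 10.6 in KO, adjusted p 0.000402), Cap2, an actin regulator (69.6 and 7.90, adjusted p 0.000183), and Ankrd2 (123.0 and 26.4, adjusted p 0.00762). The largest called interactions were 4.51 for Klhl40, -3.47 for Actn2 (adjusted p 0.0458) and 3.21 for Lmod3. Actn2 and Cap2 had myoblast means of at most 2.33 and KO myotube means of 10.6 ± 7.65 and 7.90 ± 6.38 (SD). They passed the filter on low values only with WT myotubes. Their comparisons with WT myotubes, and the Actn2 interaction, thus concern genes tested because they were high there.

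Replicates of a group varied together for several of the genes. In WT myotubes, replicate 3 was the highest sample for Ttn, Neb and Myom1, at 1.36, 0.60 and 0.89 above the group mean on the log2 scale, and replicate 2 was below the mean for all 3. Among WT myoblasts, replicate 4 was lowest for the same genes, by -1.26, -1.35 and -1.75. It held 73 reads of Ttn, 6 of Neb and 0 of Myom1. The Myom1 value thus sits at the floor and depends on the 1 added before the log. The other WT myoblasts had 3 to 6 reads of Myom1, and Unc45b was also at 0 reads in replicate 4. Mean deviations of the other 6 genes in replicates 3 and 2 of WT myotubes and replicate 4 of WT myoblasts were 0.14, -0.22 and -0.49. Over the 12 samples outside KO myoblasts, the deviations of Ttn and Neb had a Pearson r of 0.885, those of Ttn and Myom1 0.859 and those of Myom1 and Neb 0.824, against a median of 0.379 over all 36 pairs of the 9 genes. These 3 pairs were the highest of the 36. Over all 16 samples they were at 0.356, 0.539 and 0.704, against a median of 0.279. Unc45b followed with 0.767 to Myom1, 0.756 to Neb and 0.664 to Ttn over the 12 samples. Over all 16 samples it had 0.676, 0.652 and 0.554. The grouping of these genes was not tested. Replicate 4 of WT myoblasts was also lowest for Tcap, Synpo2l and Unc45b, and replicate 3 of WT myotubes also highest for Unc45b and Smyd1. The points of the 12-sample correlations share libraries, and 3 group means were removed from them. Exonic length in GENCODE M21 was 116825 bases for Ttn, 26582 for Neb and 10459 for Myom1, and at most 6105 for the other 6 (4493 for Unc45b). The median deviation of 1123 other tested genes of at least 10000 exonic bases was 0.10 in replicate 3 and -0.21 in replicate 2 of WT myotubes and -0.13 in replicate 4 of WT myoblasts, and its part in the result was not tested.

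**Figure D4:**
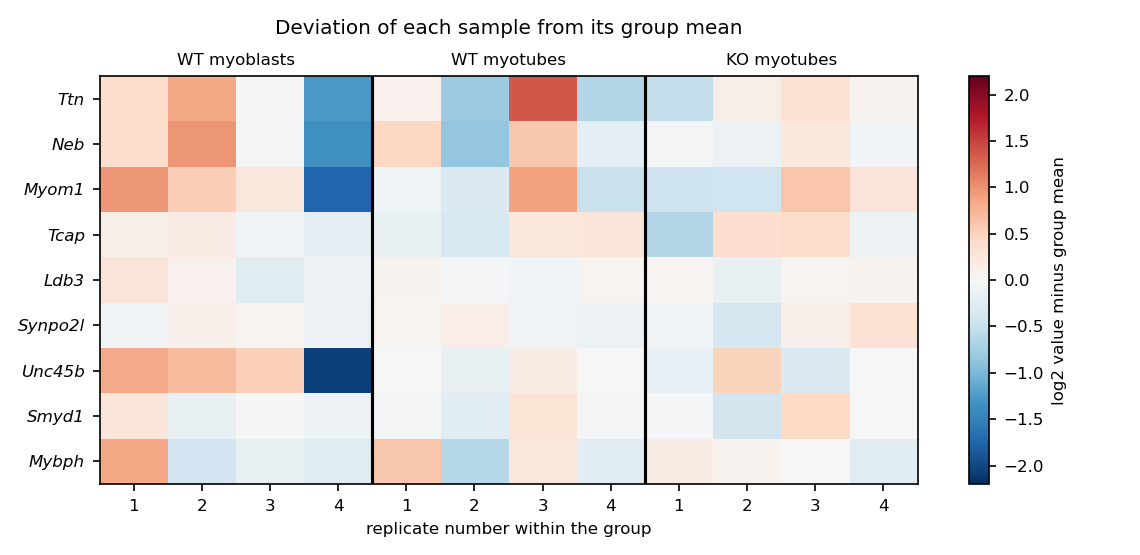
Deviation of each sample from its group mean on the log2 scale (colour; red above, blue below) for the 9 genes in 12 samples, grouped by stage and genotype with replicate numbers on the horizontal axis. Ttn, Neb and Myom1 share the red of WT myotube replicate 3 and the blue of WT myoblast replicate 4; KO myoblasts, mostly at 0 reads, are left out.

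Across all 16 samples the 9 genes had pairwise Pearson r from 0.396 for Ldb3 and Synpo2l to 0.983 for Neb and Mybph, with a median of 0.897. These points share libraries and fall into 4 groups. By the same measure over the 16 samples, the 3 tested genes most like each member were Tnnt3 (r 0.980), Chrna1 and Mylpf for Ttn, Casq2 (0.987), Atp2a1 and Myh3 for Neb, and Nav2 (0.960), Zbtb18 and Hspb7 for Myom1. Among the Z-disc genes they were Alpk3 (0.989), Xirp1 and Tmem38a for Tcap, Tgfb3 (0.968), Cox6a2 and Fam171a2 for Ldb3, and Tnnt1 (0.987), Baiap2l1 and Myod1 for Synpo2l. Unc45b was closest to Myom3 (0.973), Myom2 and Myh3, Smyd1 to Jsrp1 (0.990), Tnnt3 and Mylpf, and Mybph to Atp2a1 (0.998), Fndc5 and Myh3.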

How the data were processed

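Total RNA of 16 C2C12 samples was sequenced by a digital mRNA service as single-end reads. Per the labels, the submitters' processing notes name STAR 2.6.0a, HTSeq and the mm10 build. The deposited values are log2(normalized count + 1): the authors scaled gene counts per sample, added 1 and took the log2. The normalization tool is not given in the sources used here. Dividing by the smallest step per sample returned whole reads for 100% of values above 0 (tolerance 0.05 reads).

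Samples were grouped by title. Genes at 10 or more normalized counts in at least 4 samples were fitted with limma 3.58.1 in R 4.3.3 (4 group means, eBayes with trend, no covariate) and adjusted by Benjamini-Hochberg over 10767 genes; a gene was called at an adjusted p under 0.05. The script was tested on simulated data. Fold changes are ratios of mean normalized counts; against groups with 0 to 3 reads they are ratios of summed reads per summed depth factor, with 3 reads in place of 0 as a bound, and with exact 95% counting intervals for 1 to 3 reads. Log2 fold changes understate changes of low genes. The 74 entries without a symbol were left unnamed. Coordinates and exons come from GENCODE M21 (GRCm38), promoters from RefSeq. Named genes were the 9 members, Fam134b, Myog, Myod1, Mef2c, the 3 largest called changes of the lists per comparison and the 3 genes most correlated with each member. Members and lists were chosen with earlier results of these data known. Alternatives were other pseudocounts, filters and scalings, a replicate block, only the samples compared, sample weights, each sample left out, and, chosen after seeing depth, the 2 shallowest KO myotube samples left out.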

Additional observations from a re-analysis of the deposited data

Results flagged for a closer look

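Of 36 groups of 4 samples (9 genes in 4 groups), 4 had 1 sample far from the others by Dixon's ratio of gap to range (above the 95% critical value). The ratio does not exist for KO myoblasts in Tcap, Unc45b and Mybph, where all samples were at 0. Chance marks about 1 in 20 groups of normally distributed values, a rate that does not hold for groups of a few reads. In KO myoblasts, replicate 4 was the only sample without a Ttn read (ratio 0.971) and the only one with Neb reads, both at the level of a few reads. The Neb ratio was 1, the only value possible when the other samples are all at 0. Ldb3 in KO myotube replicate 2 stood below the other 3 samples (ratio 0.880), at a log2 value of 6.26. Unc45b in WT myoblast replicate 4 was at 0 (ratio 0.892).

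The change with differentiation differed between genotypes, by the limma interaction, for 6 genes. It was more positive in KO cells by 4.75 for Ttn, 2.21 for Neb, 5.84 for Synpo2l, 3.21 for Smyd1 and 3.62 for Mybph on the log2 scale, and more negative by -1.36 for Ldb3. The Neb value was called in 9 of 26 alternatives. Apart from Ldb3, all of these genes were at 5.25 normalized counts or less in every KO myoblast sample.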

How the results depend on the processing

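Of 45 member results (9 genes in 5 comparisons), 34 kept their direction and their side of the threshold in every alternative run, and the other 11 are named here or beside their values above. Direction turned for Tcap in the interaction with a pseudocount of 5 (-0.77) and with quantile normalization (-0.78), and for Myom1 between KO and WT myoblasts with quantile normalization (0.17); none of these was called. The number of the 9 genes called stayed between 7 and 9 for differentiation in each genotype, 6 and 8 between myoblasts, 5 and 8 between myotubes and 5 and 7 in the interaction; the minimum of 50 normalized counts tested fewer genes. Leaving out single samples gave 7 to 8 between myoblasts, 5 to 8 between myotubes and 5 to 7 in the interaction, and without replicate 4 of WT myoblasts the Unc45b interaction was called (2.53, adjusted p 0.00194). Whether the replicate numbers pair the samples is not settled by these values. Same-numbered samples had deviations correlated from -0.223 to 0.369 (mean 0.033, 10 of 24 pairs over 0.1). Those of different number ran from -0.350 to 0.370 (mean -0.011, 17 of 72 pairs over 0.1). Of the 16 samples, 7 correlated best with samples of their own number. With a replicate block, Ttn was called between KO and WT myotubes (-1.18, adjusted p 0.0317) and the Neb interaction was not (2.21, adjusted p 0.0657); the counts were 9, 9, 8, 8 and 5 of 9. With a pseudocount of 5, called log2 changes shrank by over 1.5 times and stayed called for Myom1 (1.79), Tcap (1.23) and Unc45b (3.91) in KO differentiation and for Neb (-1.95), Tcap (-0.73), Unc45b (-0.83), Smyd1 (-3.15) and Mybph (-2.87) between myoblasts. Few reads limit the KO myoblast values, where 8 genes had at most 18 reads over the group. This group was not shallow, at 2926807 to 3287461 reads per sample.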
